A study of Mus musculus with 12 samples.

Results

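The miR-125, miR-99 and miR-100 microRNAs were followed through the separation of germ cells from somatic cells in the embryonic mouse gonad. The 5 mature microRNAs miR-125a-5p, miR-125b-5p, miR-99a-5p, miR-99b-5p and miR-100-5p were taken by name from the 616 microRNAs listed in the deposited table, and all 5 passed the filter on low values that left 513 microRNAs for testing. Together they held 5.02 to 11.9% of the microRNA reads of a primordial germ cell (PGC) library and 7.20 to 13.9% of those of a gonadal somatic cell (SC) library. MicroRNAs are short RNAs that pair through their seed, bases 2 to 8, with target messenger RNAs and lower their output. In vertebrate genomes the miR-99 and miR-100 genes commonly lie in one cluster with a let-7 gene and a miR-125 gene. The miR-125 microRNAs are the vertebrate relatives of lin-4 of Caenorhabditis elegans, a regulator of developmental timing, and the miR-99 and miR-100 microRNAs are known to target components of mTOR and insulin-like growth factor signalling in mammalian cells.

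Small RNAs were sequenced on a MiSeq from CD1 mouse gonads on embryonic days 11.5, 12.5 and 13.5 (E11.5, E12.5 and E13.5), the days around sex determination. The groups were PGC of female and of male embryos and SC of female and of male embryos, 1 library for each of the 12 combinations of cell type, sex and day, with no replicate of any combination. Per the labels, about 80 gonads were pooled for each isolation after PCR sexing and removal of the mesonephros, PGC were drawn out with anti-CD15 beads to 93 to 96% enrichment, and the remaining SC were over 90% pure. No mutant or treatment was used.

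The library labelled PGC female E11.5 held few of the germ cell microRNAs that its label calls for. The miR-290 cluster, a cluster known from germ and pluripotent cells, of whose 18 named arms 14 were listed in the table, summed there to 2348 reads per 1e+06 microRNA reads (RPM), against 71284 RPM in PGC male E11.5 and 97754 to 143011 RPM in the PGC of E12.5 and E13.5, and 244 to 336 RPM in SC of E11.5 (up to 6036 RPM in SC over all 3 days). It thus lay above the SC of its own day and under every other PGC library. Mesenchyme microRNAs (miR-199a, miR-199b, miR-214, miR-143 and miR-145a, 6 of 6 listed) summed to 84618 RPM in that library, within the SC range of 70432 to 117164 RPM. Most tests that rest on it are given with and without it. Changes of ratios over the days, folds between the sexes and 3p arm shares are given only with it. So is the test of the sex difference between cell types. In all libraries, microRNA reads numbered 166804 (PGC female E12.5) to 1768825 (SC female E11.5). The smallest value a library could hold, 5 reads, stood for 2.83 to 29.98 RPM, far under every member, so depth did not limit their detection. The least abundant value, miR-100-5p in PGC male E13.5, rested on 443 reads and had an exact Clopper-Pearson interval at 95% confidence of 1027 to 1240 RPM, counting error only.

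The 5 sequences fall into 2 seed groups, printed here because the seed groups and the near identity of some members decide how their values can be read. The sequences are from RefSeq (GRCm38.p6), 5′ to 3′, with the seed in capitals.
miR-125a-5p: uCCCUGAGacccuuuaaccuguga
miR-125b-5p: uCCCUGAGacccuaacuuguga
miR-99a-5p: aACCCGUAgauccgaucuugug
miR-99b-5p: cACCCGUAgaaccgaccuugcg
miR-100-5p: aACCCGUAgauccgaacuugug
Counting positions from 1 at the 5′ end, miR-99a-5p and miR-100-5p are identical at 21 of 22 bases and differ by U16A (miR-99a-5p first). miR-99b-5p differs from miR-99a-5p at 4 positions, A1C, U11A, U16C and U21C. miR-125a-5p (24 bases) and miR-125b-5p (22 bases) share their first 13 and last 5 bases. The sources used here do not state the mismatches allowed at alignment, so reads of miR-99a-5p counted for miR-100-5p, or the reverse, cannot be told apart from true reads.

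The genes lie in 3 clusters, each with a let-7 gene between the miR-99 or miR-100 gene and the miR-125 gene. On chromosome 17 the Mir99b, Mirlet7e and Mir125a hairpins span 692 bases, with miR-99b-5p at chr17:17830194-17830215 and miR-125a-5p at chr17:17830817-17830840, both on the plus strand and within Spaca6. The Mir125a hairpin is exonic in 1 of the 3 Spaca6 transcripts that span it and intronic in the other 2, and Mir99b is intronic in both transcripts that span it (GENCODE vM39). On chromosome 16 the cluster covers 47.4 kb in introns of the long noncoding gene Mir99ahg, with miR-99a-5p at chr16:77598940-77598961 and the Mir125b-2 copy of miR-125b-5p at chr16:77646279-77646300. On chromosome 9 it covers 50.6 kb in introns of Mir100hg, with miR-100-5p at chr9:41531437-41531458 and the Mir125b-1 copy of miR-125b-5p at chr9:41581940-41581961. The mature sequence of miR-125b-5p is the same at both copies, so its count joins the chromosome 9 and chromosome 16 clusters.

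The chromosome 17 pair and the other 3 members divided the family's reads differently in germ and somatic libraries. miR-125a-5p and miR-99b-5p together made up 43.8 to 73.9% of the family's reads in the 6 PGC libraries, against 32.3 to 56.1% in the 6 SC libraries. The lowest PGC share was that of the library labelled PGC female E11.5, and the highest SC share was that of SC male E11.5, so the ranges overlapped only between E11.5 libraries. The 3 members of the other clusters took 1.41 to 5.14% of all microRNA reads in PGC and 4.37 to 8.60% in SC. Without the library labelled PGC female E11.5 the 2 PGC ranges were 53.2 to 73.9% and 1.41 to 4.62%.

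**Figure D1:**
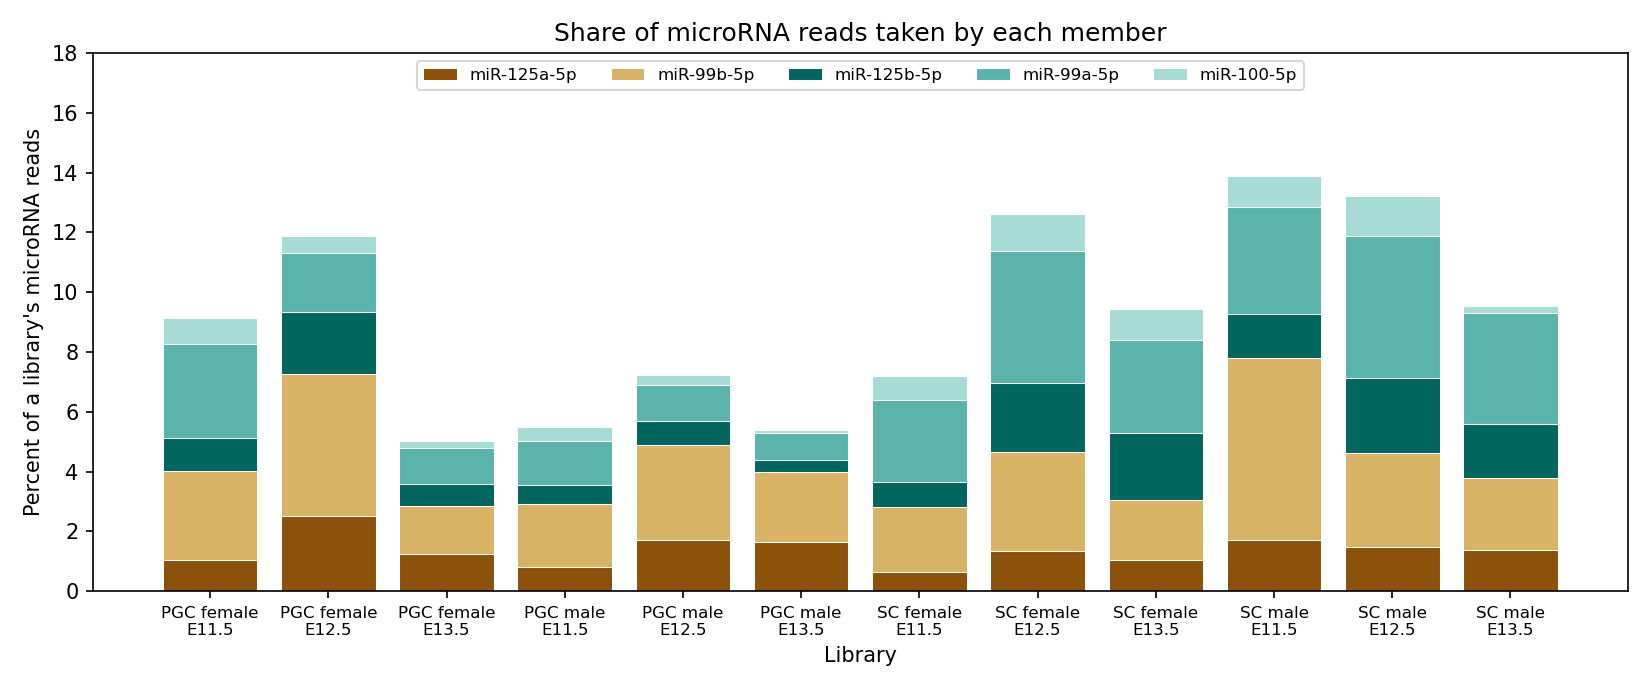
Percent of each library's microRNA reads (y axis) taken by the 5 members, stacked, with PGC libraries on the left and SC libraries on the right. The 3 green segments (miR-125b-5p, miR-99a-5p, miR-100-5p) sum to 1.41 to 5.14% in PGC and 4.37 to 8.60% in SC.

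Within the miR-99 seed group, miR-99a-5p, from the chromosome 16 cluster, held a large part of the somatic signal. It stood at 31429, 19514 and 11895 RPM in PGC of female embryos on the 3 days in order and at 14860, 12027 and 8831 RPM in PGC of male embryos. In SC it stood at 27393, 43907 and 31346 RPM in females and at 35687, 47602 and 37262 RPM in males. All SC values lay above the 5 PGC values other than that of the library labelled PGC female E11.5, and it ranked 6th to 28th among all microRNAs in PGC and 3rd to 8th in SC.

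miR-100-5p, its single-base relative on chromosome 9, was the least abundant member in 11 of the 12 libraries. Its levels in PGC were 8693, 5905 and 2443 RPM in females and 4595, 3095 and 1129 RPM in males over the 3 days. In SC they were 7954, 12470 and 10325 RPM in females and 10353, 13150 and 2337 RPM in males. The SC male E13.5 value was about as low as that of PGC female E13.5 and stood apart from the other 5 SC libraries, which did not go under 7954 RPM.

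miR-99b-5p, the chromosome 17 member with this seed, was at similar levels in both cell types. Its PGC values were 29669, 47475 and 16165 RPM in females and 20946, 31829 and 23436 RPM in males. Its SC values were 21986, 33097 and 20010 RPM in females and 60791, 31332 and 24158 RPM in males. Here the high value was SC male E11.5, where miR-99b-5p was the most abundant microRNA of the library.

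In the miR-125 seed group, miR-125a-5p stood at 10387, 25269 and 12276 RPM in PGC of females and at 8241, 17190 and 16354 RPM in PGC of males. In SC it stood at 6301, 13491 and 10491 RPM in females and at 17115, 14776 and 13736 RPM in males. The ranges of the 2 cell types overlapped over most of their width, and in 5 of 6 stage-by-sex pairs the PGC value was the higher.

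miR-125b-5p, made from both long clusters, stood at 11252, 20755 and 7458 RPM in PGC of females and at 6256, 8036 and 4122 RPM in PGC of males. In SC it stood at 8364, 23151 and 22294 RPM in females and at 14934, 25218 and 17922 RPM in males. The PGC value was the lower in 5 of 6 pairs, the exception being the pair with the library labelled PGC female E11.5.

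**Figure D2:**
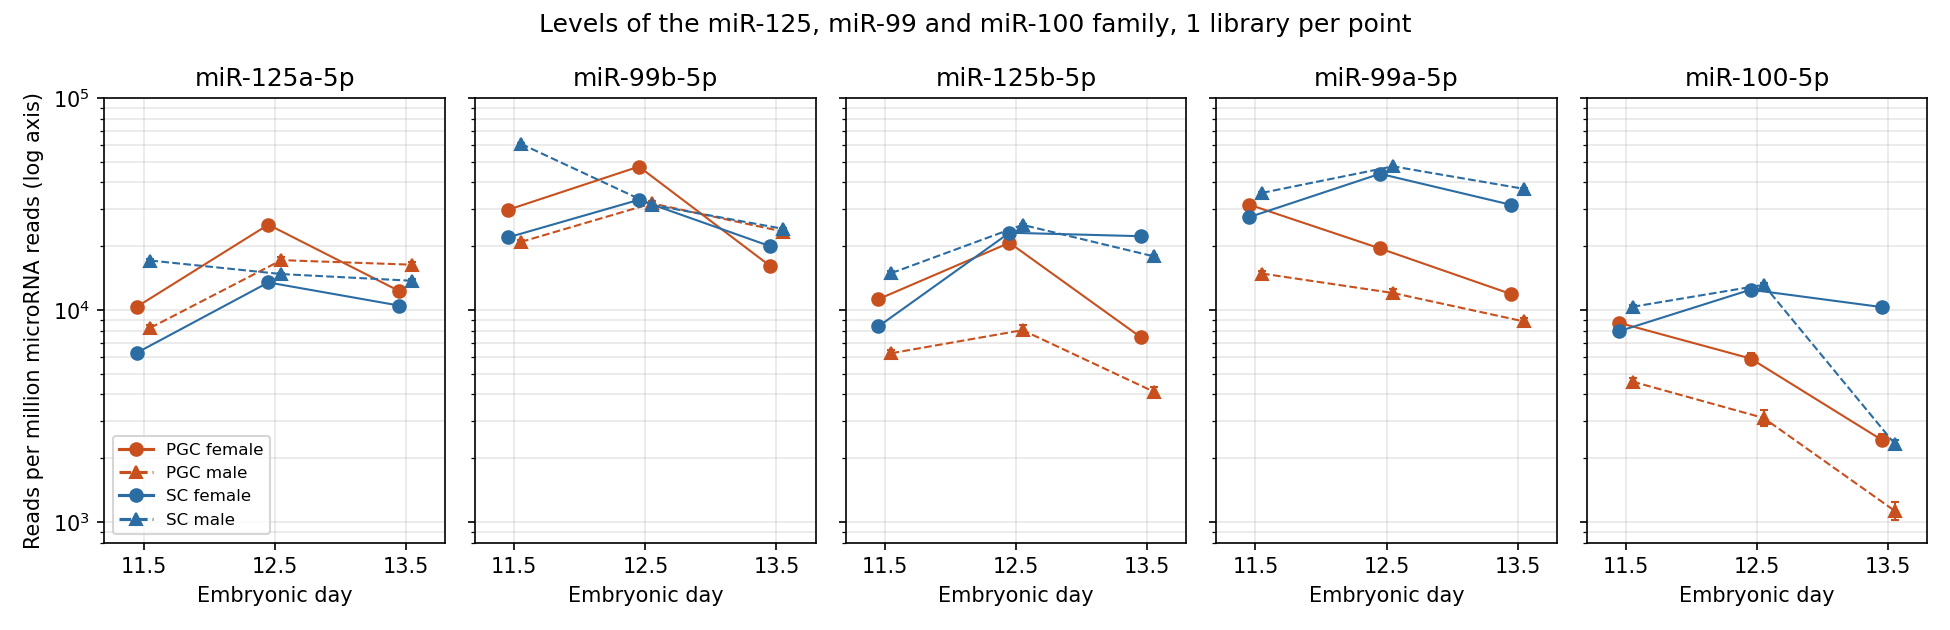
RPM of each member (log axis) against embryonic day, 1 point per library, PGC in orange and SC in blue, females as circles with full lines and males as triangles with dashed lines. Bars are exact 95% counting intervals, mostly smaller than the points. miR-125a-5p and miR-99b-5p lines of both cell types intermix, while SC lies above PGC for miR-99a-5p at E12.5 and E13.5.

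The order of the members by median level differed between the cell types. In PGC the medians ran from miR-99b-5p (26552 RPM) through miR-125a-5p (14315 RPM), miR-99a-5p (13444 RPM) and miR-125b-5p (7747 RPM) to miR-100-5p (3845 RPM). In SC they ran from miR-99a-5p (36474 RPM) through miR-99b-5p (27745 RPM), miR-125b-5p (20108 RPM) and miR-125a-5p (13614 RPM) to miR-100-5p (10339 RPM). Over the 5 PGC libraries without that labelled female E11.5 the medians kept this order, at 23436, 16354, 12027, 7458 and 3095 RPM. All neighbours in these orders overlapped in their ranges over 6 libraries. These levels are also not corrected for how readily each sequence enters a library, so the ratios below are compared between libraries and not read as numbers of molecules.

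PGC were then compared with SC over the 6 stage-by-sex pairs, to ask how germ and somatic cells differ in these microRNAs. The fit was limma on log2(value + 1) across the 513 tested microRNAs, with the pair as a block and Benjamini-Hochberg adjusted p under 0.05 as the threshold. On the deposited scale, reads divided by the authors' size factors, all 5 members were lower in PGC, where 77.2% of all tested microRNAs were called lower and the median change of all was -2.58. The members' log2 changes were -2.02 ± 0.59 (SE) for miR-125a-5p and -2.38 ± 0.58 for miR-99b-5p, both above the median of all, and -3.29 ± 0.64 for miR-125b-5p, -3.51 ± 0.64 for miR-99a-5p and -3.45 ± 0.66 for miR-100-5p, which were below it. With so large a share of all microRNAs lower on that scale, the count of 5 is not particular to these members. When the size factors were recomputed as DESeq's median of ratios, 3 of the 5 were called, and miR-125a-5p changed sign (log2 change 0.30). The calls over all microRNAs, in either direction, also fell with recomputed size factors. The count of 3 is therefore not read as particular to the members either.

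With every library brought to the same total (equal totals, RPM), 3 members were lower in PGC, against 25.5% of all tested microRNAs and a median change of all of -0.74. miR-99a-5p was 2.43-fold lower (log2 change -1.28 ± 0.32 SE, limma adjusted p = 0.0134, lower in 5 of 6 pairs). miR-100-5p was 2.33-fold lower (-1.22 ± 0.32, limma adjusted p = 0.0154, lower in 5 of 6 pairs). miR-125b-5p was 2.08-fold lower (-1.06 ± 0.35, limma adjusted p = 0.0364, lower in 5 of 6 pairs). The chromosome 17 members did not pass the threshold, and miR-125a-5p had the opposite sign from the deposited scale. miR-125a-5p had a log2 change of 0.21 ± 0.30 (limma adjusted p = 0.571) and miR-99b-5p one of -0.15 ± 0.31 (limma adjusted p = 0.709).

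Without the library labelled PGC female E11.5 the same 3 members were called at equal totals, and all 5 on the deposited scale. The log2 changes at equal totals were -1.58 for miR-99a-5p (limma adjusted p = 0.00374), -1.49 for miR-100-5p (0.00472) and -1.35 for miR-125b-5p (0.0136). The share of all tested microRNAs called lower without that library is not given here, so these counts are not read as particular to the members. The 3 calls were less stable to other changes. Without the pair as a block miR-99a-5p alone was called at equal totals, since miR-125b-5p (limma adjusted p = 0.0658) and miR-100-5p (0.0947) then missed the threshold, and with a variance prior that had no trend miR-125b-5p missed it (limma adjusted p = 0.0899). All 3 were lost at equal totals without PGC male E12.5 or SC male E12.5 (miR-99a-5p, the nearest, had limma adjusted p = 0.0533 without PGC male E12.5 and 0.0549 without SC male E12.5), and those of miR-100-5p and miR-125b-5p were lost without PGC female E13.5 or SC female E13.5. The call of miR-125b-5p was also lost without either library of the male E11.5, female E12.5 or male E13.5 pair. Every one of the 3 stayed lower in PGC in each of these fits. The female E11.5 pair was the exception in direction. At E12.5 and E13.5 the PGC level of miR-99a-5p was 0.444 and 0.379 times that of SC in females and 0.253 and 0.237 times in males, whereas at E11.5 the ratios were 1.15 in the female pair and 0.416 in the male pair. In these sorted fractions a smaller share of cells carrying a microRNA and less of it per cell cannot be told apart.

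**Figure D3:**
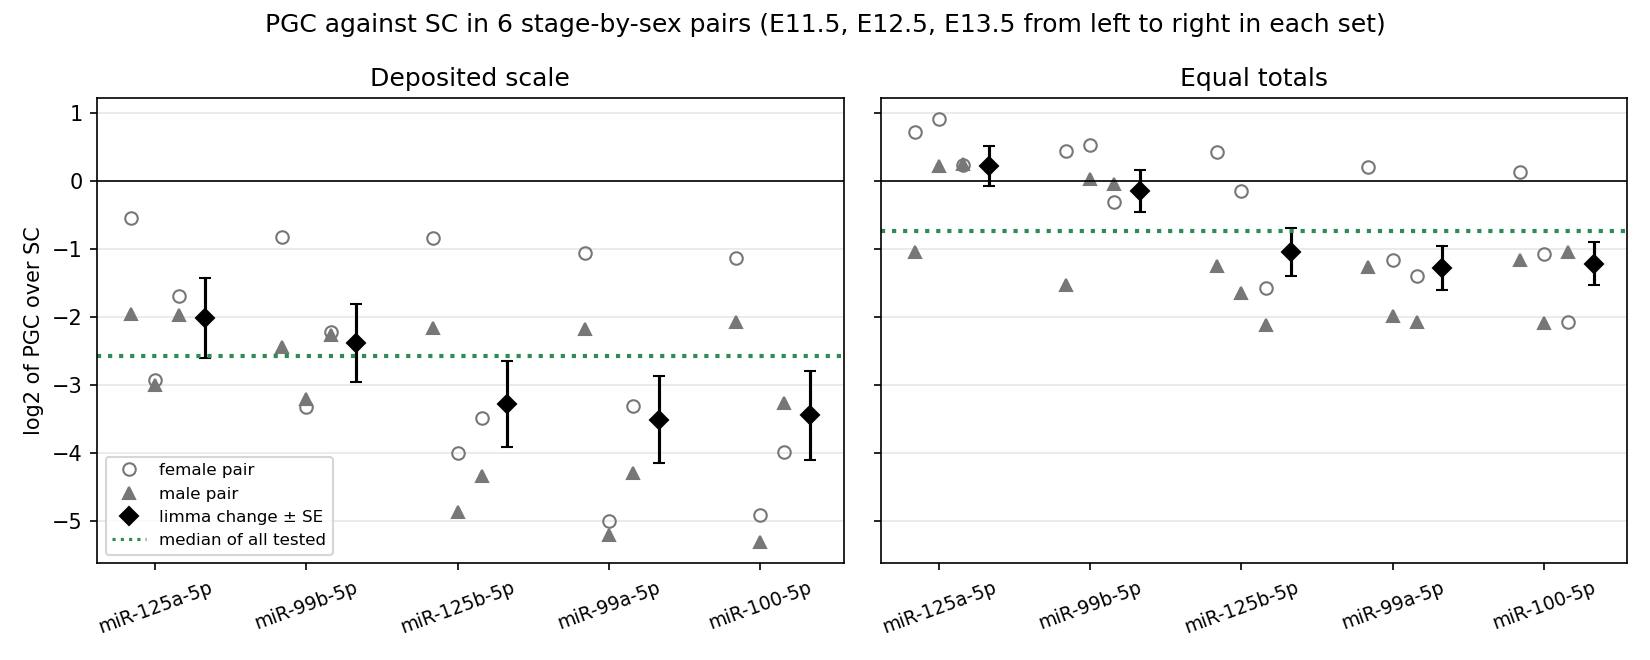
log2 of PGC over SC for each member from deposited values (left) and after scaling to equal totals (right). Grey symbols are the 6 pairs, ordered E11.5 to E13.5, black diamonds the limma change with its SE, and the dotted green line the median change of all tested microRNAs. The limma changes of miR-125b-5p, miR-99a-5p and miR-100-5p lie below that line on both scales, and those of miR-125a-5p and miR-99b-5p above it.

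Marker lists of other cells were set beside these members. The mesenchyme list summed to 8306 to 84618 RPM in PGC and 70432 to 117164 RPM in SC, and the endothelial pair miR-126a-3p and miR-126a-5p to 4670 to 51442 RPM in PGC and 16088 to 37105 RPM in SC. All 6 mesenchyme microRNAs were called lower in PGC at equal totals, as was 1 of the endothelial pair (6 and 2 without the library labelled PGC female E11.5). In PGC both lists were highest at E11.5, at 59090 to 84618 RPM and 27782 to 51442 RPM. Of the other lists at equal totals, kidney miR-192-5p, miR-194-5p and miR-204-5p were called higher in PGC (log2 changes 1.03, 0.93 and 2.69). Of the 2 neural microRNAs tested, miR-9-5p was called higher (2.80), while miR-9-3p had the opposite sign (-0.91) and was not called. Of the muscle and gonadal soma lists, only miR-1a-3p and miR-202-5p were called, both lower. No erythroid microRNA was called, nor was the liver microRNA miR-122-5p. Without the library labelled PGC female E11.5, 2 of 3 muscle, 2 of 3 gonadal soma and 1 of 3 erythroid microRNAs were called lower. The liver microRNA was again not called, and the kidney and neural calls stayed. Every germ microRNA tested was called higher in PGC, with and without that library. The part of these lists in the members' differences was not tested.

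**Figure D4:**
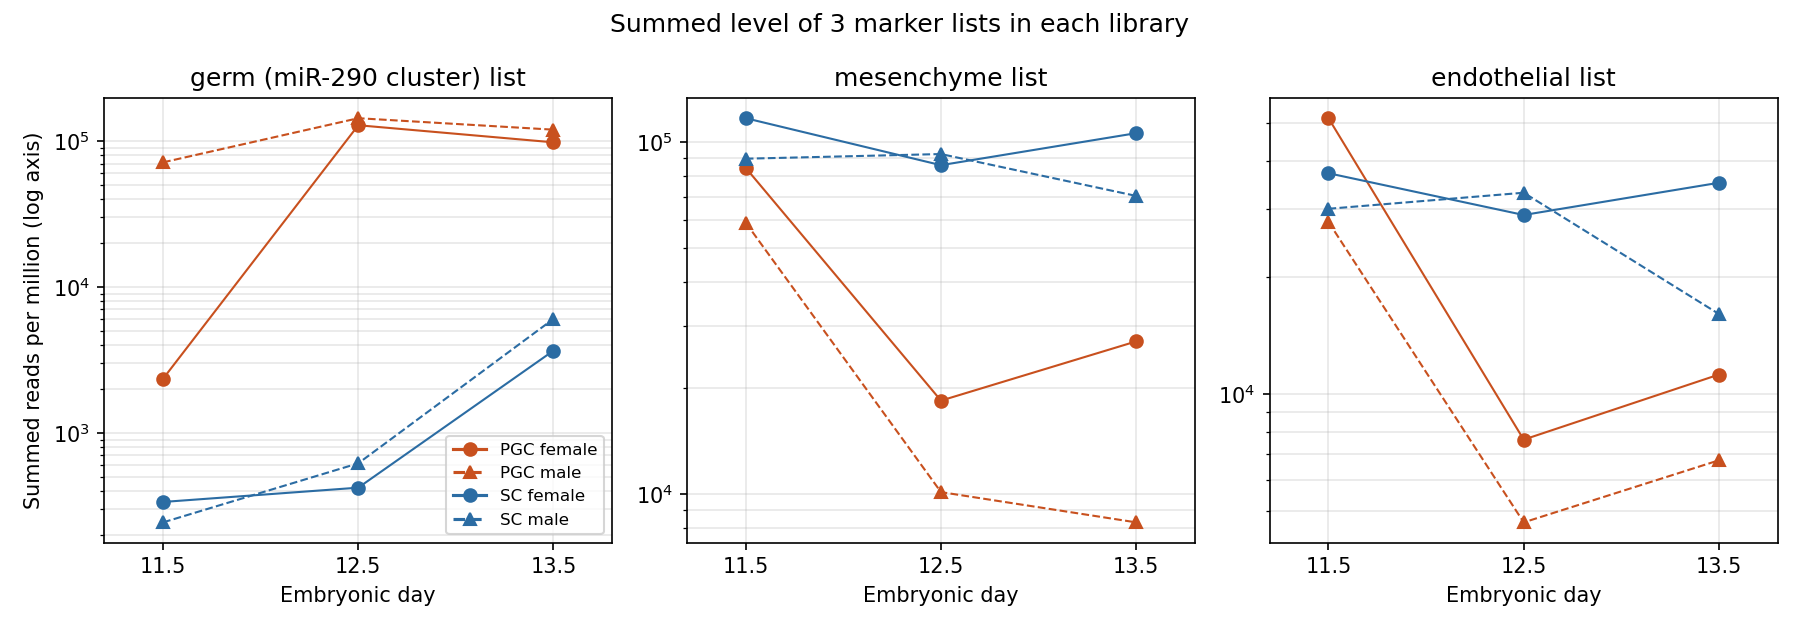
Summed RPM (log axis) of the germ, mesenchyme and endothelial lists in each library against embryonic day, PGC in orange and SC in blue. The library labelled PGC female E11.5 holds 2348 RPM of the germ list, and the mesenchyme list in PGC lies at 59090 to 84618 RPM at E11.5 and at 8306 to 27170 RPM at E13.5.

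Ratios between members within a library do not depend on how it is scaled. The ratio of miR-125b-5p to miR-125a-5p, which share a seed but come from different clusters, was 1.08, 0.821 and 0.608 in PGC of females and 0.759, 0.467 and 0.252 in PGC of males on the 3 successive days. In SC it was 1.33, 1.72 and 2.13 in females and 0.873, 1.71 and 1.30 in males. The ratio was lower in PGC in 6 of 6 pairs, by 1.27 ± 0.89 (SD, n = 6 pairs) on the log2 scale (exact sign-change permutation test, two-sided, p = 0.03125, the smallest 64 sign changes can give, and 0.09375 after Benjamini-Hochberg adjustment over the 6 ratios tested). The direction held in every pair, and the adjusted value missed the threshold. Without the female E11.5 pair the difference was -1.46 ± 0.85 (SD, n = 5 pairs; exact permutation p = 0.0625, the smallest that 5 pairs allow).

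The matching ratio in the miR-99 group, miR-99a-5p to miR-99b-5p, was 1.06, 0.411 and 0.736 in PGC of females and 0.709, 0.378 and 0.377 in PGC of males. In SC it was 1.25, 1.33 and 1.57 in females and 0.587, 1.52 and 1.54 in males. It was lower in PGC in 5 of 6 pairs, the exception being the male E11.5 pair, and the mean log2 difference was -1.13 ± 0.97 (SD, n = 6 pairs; exact permutation p = 0.09375, adjusted 0.1875). It was -1.31 ± 0.96 without the female E11.5 pair (n = 5 pairs; exact permutation p = 0.125).

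The pair made from the same 692 bases, miR-125a-5p and miR-99b-5p, had the smallest spread of pair differences among the 6 ratios. Their ratio was 0.350, 0.532 and 0.759 in PGC of females and 0.393, 0.540 and 0.698 in PGC of males over the 3 days. In SC it was 0.287, 0.408 and 0.524 in females and 0.282, 0.472 and 0.569 in males. It was higher on each later day in all 4 series of a cell type and sex, 1.77 to 2.17 times as high at E13.5 as at E11.5, and this change with time carries no test. PGC exceeded SC in 6 of 6 pairs by 0.36 ± 0.13 on the log2 scale (SD, n = 6 pairs; exact permutation p = 0.03125, adjusted 0.09375), with pair differences of 0.20 to 0.53. The female E11.5 pair fell in the same range as the others (without it, 0.38 ± 0.14, n = 5 pairs, exact permutation p = 0.0625), and without each pair in turn the mean difference stayed between 0.33 and 0.40.

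miR-100-5p and miR-99a-5p, from different chromosomes, had a ratio of 0.257 to 0.329 in 9 of the 12 libraries. The other 3 were all from E13.5, with 0.205 in PGC female, 0.128 in PGC male and 0.0627 in SC male. These microRNAs differ by 1 base, and reads of either counted for the other cannot be told apart from true reads. Between cell types the mean log2 difference was 0.06 ± 0.55 (SD, n = 6 pairs; exact permutation p = 0.75), with pair differences of -0.68 to 1.03. The ratios of miR-125b-5p to miR-99a-5p and to miR-100-5p differed by 0.23 ± 0.43 and 0.17 ± 0.69 on the log2 scale, PGC minus SC (exact permutation p = 0.21875 and 0.5625, n = 6 pairs), so neither differed beyond the spread over pairs. Without the female E11.5 pair these 3 differences were 0.09, 0.23 and 0.14 (exact permutation p = 0.75, 0.4375 and 0.75, n = 5 pairs).

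**Figure D5:**
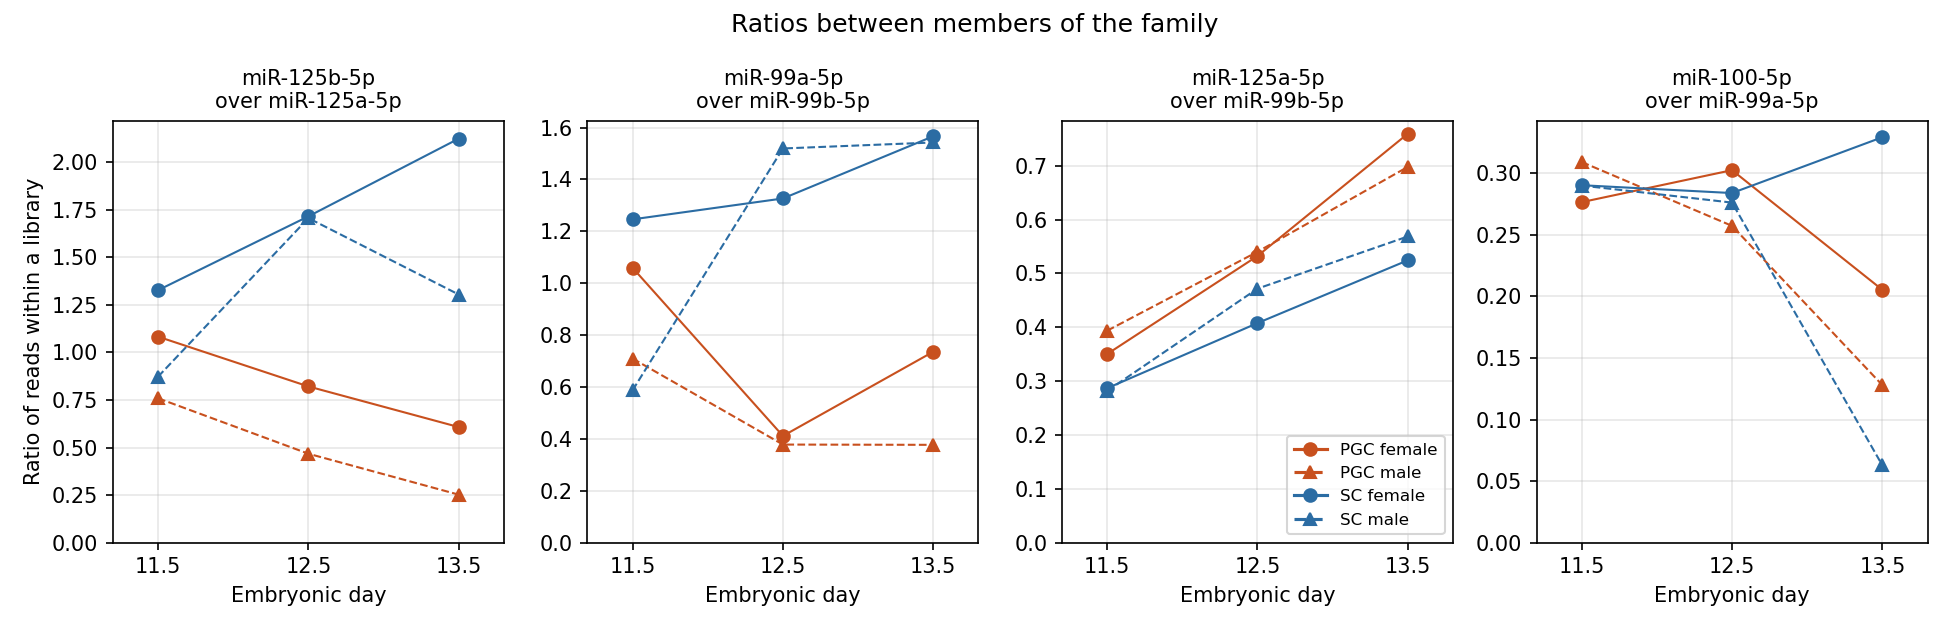
Ratio of reads of 2 members within a library (linear axis from 0) against embryonic day, PGC in orange and SC in blue, females as circles with full lines and males as triangles with dashed lines. The miR-125a-5p to miR-99b-5p ratio is higher on each later day in all 4 series, and the miR-100-5p to miR-99a-5p ratio lies between 0.257 and 0.329 except in 3 E13.5 libraries.

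The 3p arms, the other strand of the same hairpins, gave a further readout with far fewer reads. Of 6 such arms 5 were listed. At equal totals miR-125b-1-3p (log2 change -1.47 ± 0.38 SE, limma adjusted p = 0.0154), miR-125b-2-3p (limma adjusted p = 0.0291) and miR-99a-3p (limma adjusted p = 0.0475) were lower in PGC. Among all tested microRNAs 25.5% were called lower on that scale. miR-99a-3p was listed at 0, that is under 5 reads, in all 6 PGC libraries and in 2 of 6 SC libraries and never passed 36 reads, so that call sits at the detection floor. miR-125b-2-3p was under 5 reads in both E12.5 PGC libraries, the shallowest of the study. The arms of the chromosome 17 hairpins did not pass at equal totals, at 0.31 ± 0.44 for miR-125a-3p (limma adjusted p = 0.581) and 0.05 ± 0.26 for miR-99b-3p (limma adjusted p = 0.883). On the deposited scale all 5 listed arms were called lower, these included (limma adjusted p = 0.00929 and 0.00441), as were 77.2% of all tested microRNAs. Without the library labelled PGC female E11.5 both miR-125b arms were still called at equal totals (limma adjusted p = 0.0079 and 0.0294), and miR-99a-3p was not (0.0659). Both arms of a hairpin come from the same libraries, so the 3p arms are no independent support for the 5p values.

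The miR-125b-1-3p and miR-125b-2-3p arms differ in sequence and separate the chromosome 9 and chromosome 16 copies, which the 5p count cannot. miR-125b-1-3p stood at 73.9 to 283 RPM in PGC and 208 to 684 RPM in SC, against up to 135 RPM for miR-125b-2-3p in PGC and 113 to 191 RPM in SC. miR-125b-1-3p had 1.64 to 2.90 times the reads of miR-125b-2-3p in the 4 PGC libraries where both were detected, and 1.09 to 6.08 times in SC. The lowest SC ratio was again SC male E13.5, the library in which miR-100-5p of chromosome 9 was low. The 3p arm of the miR-99b hairpin made up 1.60 to 5.51% of the reads of both its arms in PGC and 1.82 to 4.67% in SC.

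Over time in PGC, the comparison of E13.5 with E11.5 used 2 libraries per day, 1 of each sex, in a limma fit of all 12 libraries with sex within cell type. At equal totals miR-100-5p was 3.80-fold lower at E13.5 (log2 change -1.93 ± 0.57 SE, limma adjusted p = 0.042) and miR-99a-5p 2.11-fold lower (-1.08 ± 0.24, limma adjusted p = 0.0143), each lower in both sexes. Among all tested microRNAs 21.4% were called lower. The other 3 were not called, at -0.60 ± 0.32 for miR-125b-5p, -0.36 ± 0.43 for miR-99b-5p and 0.61 ± 0.38 for miR-125a-5p. On the deposited scale miR-100-5p alone was called (-2.54 ± 0.79, limma adjusted p = 0.00984), where 25.1% of all were called lower.

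Without the library labelled PGC female E11.5 none of the 5 was called in this comparison on either scale. miR-100-5p then had a log2 change of -1.98 at equal totals (limma adjusted p = 0.173) and miR-99a-5p one of -0.82 (0.126), and the calls over all microRNAs numbered 93 in place of 148 at equal totals and 22 in place of 169 on the deposited scale. The call of miR-100-5p at equal totals was also lost without any other PGC library or any SC library of E11.5 or E12.5 (limma adjusted p = 0.0507 to 0.173), that on the deposited scale without PGC female E13.5 or PGC male E13.5, and that of miR-99a-5p without PGC female E13.5. In the male series by itself, which that library does not enter, miR-100-5p was 4595, 3095 and 1129 RPM over the 3 days. There miR-99a-5p was 14860, 12027 and 8831 RPM. The male series also changed in its markers over the 3 days. Its mesenchyme list summed to 59090, 10126 and 8306 RPM and its endothelial list to 27782, 4670 and 6751 RPM. Its germ list summed to 71284, 143011 and 119349 RPM. Both lists of mesenchyme and endothelial markers were also lower at E13.5 in PGC at equal totals, with 5 of 6 and 2 of 2 called (6 and 2 without the library labelled PGC female E11.5). Of the other marker lists, all 3 muscle microRNAs, the liver microRNA miR-122-5p and 1 of 3 erythroid microRNAs were called lower at E13.5, and 2 of 3 gonadal soma microRNAs and 1 of 3 kidney microRNAs higher, with no call among 13 germ and 2 neural microRNAs tested. Without that library, 3 of 3 muscle microRNAs stayed lower and 1 of 3 gonadal soma microRNAs higher, and none of the liver, erythroid, kidney, germ and neural lists was called. At E13.5, miR-122-5p was under 5 reads in both PGC libraries. So were 3 of 3 muscle microRNAs in PGC male and 2 of 3 in PGC female. The muscle and liver calls thus sit at the detection floor. The part of these lists in the members' change was not tested.

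In SC none of the 5 members was called between E13.5 and E11.5 on either scale, where 6.63% of all tested microRNAs rose and 1.36% fell at equal totals (8.38% and 2.53% on the deposited scale). With limma, 1 of the 5 had an unadjusted p under 0.05 at equal totals and 0 on the deposited scale, against 125 and 90 of all 513 tested. miR-125b-5p came nearest with a log2 change of 0.84 ± 0.32 at equal totals (limma adjusted p = 0.169), and miR-100-5p had -0.89 ± 0.57 (0.385), with 10325 RPM in females and 2337 RPM in males at E13.5. A let-7 gene lies in each of the 3 clusters. Of 10 tested let-7 microRNAs, 7 rose in SC at equal totals, among them let-7c-5p by 2.51 ± 0.24 on the log2 scale (limma adjusted p = 0.00305) and let-7a-5p by 1.96 ± 0.25 (limma adjusted p = 0.00866), and 3 rose on the deposited scale (5 and 2 without the library labelled PGC female E11.5, which enters this fit through the shared spread). let-7e-5p, from the chromosome 17 cluster, had 0.91 ± 0.30 and was not called (limma adjusted p = 0.123). let-7a-5p and let-7c-5p are each made from further genes elsewhere, so their counts do not measure these clusters alone.

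Whether the change with time differed between PGC and SC was tested directly. No member passed on either scale, where 0.78% of all tested microRNAs were called from the deposited values and 0% after equal scaling (108 of 513 had an unadjusted p under 0.05 there). Of the 5 members, 2 had an unadjusted p under 0.05 in limma at equal totals and 1 on the deposited scale. The largest differences at equal totals were -1.44 ± 0.45 for miR-125b-5p (limma adjusted p = 0.144) and -1.20 ± 0.34 for miR-99a-5p (limma adjusted p = 0.113). Without the library labelled PGC female E11.5 they were -1.57 for miR-125b-5p (limma adjusted p = 0.209) and -0.95 for miR-99a-5p (limma adjusted p = 0.243). The lower level of miR-99a-5p at E13.5 in PGC is thus not shown to differ from its change in SC.

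Female and male libraries were compared within each cell type over 3 libraries of each sex, 1 per day. No member was called in PGC or in SC, where 0.39% and 1.17% of all tested microRNAs were called from the deposited values and 0% in both after equal scaling (83 and 22 of 513 had an unadjusted p under 0.05, among them 2 members in PGC and 0 in SC, by limma). In PGC at RPM, miR-125b-5p was 1.80 to 2.58 times, miR-100-5p 1.89 to 2.16 times and miR-99a-5p 1.35 to 2.11 times as high in females as in males, higher in females on all 3 days. Their log2 changes at equal totals were 1.02 ± 0.26 for miR-125b-5p (limma adjusted p = 0.233), 0.99 ± 0.46 for miR-100-5p (0.359) and 0.74 ± 0.19 for miR-99a-5p (0.234). The direction was thus the same on each day, and the adjusted test was not passed. Without the library labelled PGC female E11.5 the changes were 1.11 for miR-125b-5p (limma adjusted p = 0.379) and 0.56 for miR-99a-5p (limma adjusted p = 0.483). In SC at RPM, miR-99a-5p and miR-125a-5p were lower in females on all 3 days, at 0.768 to 0.922 and 0.368 to 0.913 times the male level. Neither was called at equal totals (limma adjusted p = 0.973 and 0.924). On the deposited scale miR-99a-5p had the opposite sign (log2 change 0.27), and miR-125a-5p had -0.13. The sex difference was not shown to differ between PGC and SC, with 0% of all tested microRNAs called on either scale (limma, 61 of 513 with an unadjusted p under 0.05 at equal totals, 2 of them members).

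SC male E13.5 was the library in which miR-100-5p stood apart, with 10325 RPM in SC of females against 2337 RPM in SC of males at E13.5. miR-10a-5p, a microRNA of the Hoxb cluster named here beside miR-10b-5p, was low in the same library, at 47961 RPM in the female and 6955 RPM in the male, while miR-10b-5p of the Hoxd cluster was at 99612 RPM in the female and 99773 RPM in the male. miR-99a-5p was not low there, at 31346 RPM in the female and 37262 RPM in the male. With 1 library, a property of that isolation and one of male SC at that day cannot be told apart.

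Another listed microRNA carries the miR-125 seed, miR-351-5p from the X chromosome.
miR-351-5p: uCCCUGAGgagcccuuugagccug
It stood at 1820 to 4544 RPM in PGC and 2651 to 7913 RPM in SC, under miR-125b-5p in every library. Its PGC against SC change at equal totals, -0.69 ± 0.34 on the log2 scale (limma adjusted p = 0.121), lay between those of miR-125b-5p and miR-125a-5p and was not called. It was called lower without the library labelled PGC female E11.5, at -0.95 ± 0.31 (limma adjusted p = 0.0418). No other listed microRNA shares the miR-99 seed.

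Correlations between members were taken on log2(RPM + 1). Across the 12 libraries Pearson's r was 0.84 between miR-125b-5p and miR-99a-5p, 0.79 between miR-99a-5p and miR-100-5p and 0.64 between miR-125a-5p and miR-99b-5p, against -0.12 between miR-125a-5p and miR-99a-5p and 0.35 between miR-99a-5p and miR-99b-5p. Within the 6 SC libraries the order was another, with 0.76 between miR-125a-5p and miR-99a-5p and 0.69 between miR-125a-5p and miR-99b-5p, against 0.78 between miR-125b-5p and miR-99a-5p and 0.22 between miR-99a-5p and miR-100-5p. In the 6 PGC libraries those 4 values were -0.18, 0.69, 0.71 and 0.94, and in the 5 without that labelled female E11.5 they were 0.21, 0.81, 0.88 and 0.96. These values are descriptions, since the libraries share cell type and scaling. Partners were sought among 327 other microRNAs with a mean deposited value of at least 50. The closest pattern to miR-99a-5p was that of miR-503-3p (r = 0.98 over 12 libraries, 0.97 in PGC and 0.96 in SC). It was followed by miR-214-5p and miR-214-3p, both from a hairpin on the mesenchyme list. Their r was 0.87 and 0.90 in PGC but 0.55 and 0.34 in SC. miR-503-3p was also closest to miR-125b-5p (r = 0.90), ahead of miR-10b-5p and miR-322-3p. For miR-100-5p it was miR-196a-5p (r = 0.97 over 12 libraries), a Hox-cluster microRNA, then miR-181a-1-3p and miR-224-5p. miR-99b-5p was closest to miR-342-3p (r = 0.92), miR-149-5p and miR-1198-5p. miR-125a-5p had the least close partners, miR-191-5p (r = 0.80), let-7d-3p and miR-365-3p. Over the 11 libraries without that labelled PGC female E11.5 the closest microRNA to each member was the same.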

How the data were processed

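The deposited values are a normalized signal per mature microRNA, which the authors made by dividing reads by 1 DESeq size factor per library. Per the submitters' processing notes, FastQC, Trim Galore, Bowtie 1.1.2 and GRCm38 were used; the sources used here do not state the counting step or annotation release. Of the values, 100% were 0 or whole multiples (tolerance 1e-06) of the smallest value in the library divided by 5, so whole reads were taken back from them and 0 was read as under 5 reads. Recomputed size factors differed from those in the values, so each fit was run both on the deposited values and on RPM of the column sum (equal totals).

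Tests used limma 3.58.1 in R 4.3.3 on log2(value + 1), with an empirical Bayes trend, on the 513 of 616 microRNAs with a mean deposited value of at least 5, adjusted by Benjamini-Hochberg over all of them. PGC against SC had the stage-by-sex pair as a block (5 residual degrees of freedom). Stage and sex came from 1 fit of 12 libraries (4 residual degrees of freedom). The labels put both fractions in gonads of the same stage and sex but give no shared pool, and with 1 library per combination a p-value reflects the spread among single libraries, not among repeated isolations. Ratios used exact sign-change permutation tests in Python 3.11.15. The fits were tested on simulated data. The edgeR alternative was not run; limma voom on the reads taken back was added after seeing the data, as were the medians, correlations and list counts without the library labelled PGC female E11.5. The members and lists were chosen with earlier results of these data known. The text names the members, their 3p arms, let-7 and miR-10 microRNAs, microRNAs sharing a seed, those of the cell type marker lists, and the 3 microRNAs most like each member. Counting intervals are exact Clopper-Pearson at 95% and cover counting error only.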

Additional observations from a re-analysis of the deposited data

Results flagged for a closer look

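Of 32 sets of 6 libraries (5 members on 2 scales and 6 ratios, in each cell type), 8 held a library far from the other 5 by Dixon's 95% criterion. That criterion flags about 1 set in 20 by chance when the values are independent replicates. These sets mix days and sexes and reuse the same libraries, so the count of 8 cannot be compared with that rate. On the deposited scale the library labelled PGC female E11.5 stood above the other PGC libraries for miR-125b-5p (10101.2, next 2902.6), miR-99a-5p (28214.4, next 5492.32), miR-99b-5p (26634.7, next 8476.31) and miR-100-5p (7803.97, next 1698.42). No member stood apart in that library at RPM, and its deposited values summed to 897730, against at most 389180 in the other PGC libraries. The same library held 2348 RPM of the germ list and 84618 RPM of the mesenchyme list, and the part of these in its values was not tested. SC male E11.5 stood apart for miR-99b-5p, at 60790.6 RPM against at most 33096.7 RPM in the other SC libraries, and for the ratio of miR-99a-5p to miR-99b-5p, at 0.58705 against at least 1.24596. SC male E13.5 stood apart for the ratio of miR-100-5p to miR-99a-5p, at 0.0627148 against at least 0.276245, and for that of miR-125b-5p to miR-100-5p, at 7.66914 against at most 2.15923.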

How the results depend on the processing

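Members called, out of 5, changed as follows. For PGC against SC, 5 on the deposited scale became 3 with recomputed size factors; 3 at equal totals became 0 without both E12.5 PGC libraries, 0 without both E13.5 SC libraries and 1 without the pair (no replicate block), and ranged from 0 to 3 with 1 library left out. For E13.5 against E11.5 in PGC, 1 on the deposited scale became 0 without both E11.5 female libraries, with PGC libraries alone or with recomputed size factors (0 to 2 with 1 library left out). The 2 at equal totals became 0 without the trend or both E11.5 female libraries, and 1 without both E12.5 PGC libraries, with PGC alone or with voom (0 to 2). In SC, 0 at equal totals became 0 to 1. With voom the SC stage, sex and difference-of-change comparisons also called 0 members. Among single members, miR-125b-5p missed the threshold at equal totals in PGC against SC without the trend (limma adjusted p = 0.0899), and miR-125a-5p on the deposited scale without both E13.5 SC libraries (0.0508). Over all microRNAs, PGC against SC called 432 (deposited; 193 with recomputed size factors) and 200 (equal totals; 17 without both E12.5 PGC libraries, 7 without both E13.5 SC libraries, 95 with no replicate block), and the PGC stage comparison 169 (0 without both E11.5 female libraries, 80 with PGC alone) and 148 (1 and 73).

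Signs turned for uncalled log2 changes, and for 1 called change, miR-125a-5p in PGC against SC (0.30 with recomputed size factors). On the deposited scale, miR-125a-5p over stage in PGC was 0.86 without both E11.5 female libraries and 0.93 with recomputed size factors. At equal totals in SC it was -0.38 without both E11.5 female libraries. With 1 library left out, deposited stage changes ran from -0.87 to 0.86 (miR-125a-5p, PGC), -0.24 to 1.23 (miR-99a-5p, SC) and -1.16 to 0.12 (miR-100-5p, SC). At equal totals they ran from -0.89 to 0.18 (miR-99b-5p, PGC), -0.38 to 0.80 (miR-125a-5p, SC) and -2.07 to 0.30 (miR-100-5p, SC), and miR-99b-5p in PGC against SC from -0.29 to 0.12. Ratio differences with 1 pair left out ranged from -1.48 to -1.05 (miR-125b-5p over miR-125a-5p), 0.33 to 0.40 (miR-125a-5p over miR-99b-5p) and -0.13 to 0.21 (miR-100-5p over miR-99a-5p); 5 pairs allow no exact p under 0.0625. The labels give no replicate numbers. The edgeR fit was not run, and SC stage comparisons had no value without both E13.5 SC libraries. The cause of these changes was not tested. Some 3p arms were under 5 reads in some libraries, as were some microRNAs of the germ, gonadal soma, erythroid, muscle, neural and liver lists.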
